A study of Mus musculus with 56 samples.

Results

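Glucose transport and the control of glycolysis were followed in mouse heart through 10 genes, taken by symbol from the 22864 genes listed: Slc2a1, Slc2a4, Hk1, Hk2, Pfkm, Pfkfb1, Pfkfb2, Pkm, Ldha and Ldhb. The rule that picks them uses symbols alone and no measured value, although the list was drawn up with earlier results of these data known. All 10 passed the filter on low values (1 TPM or more on average across the libraries, TPM being reads per base of transcript scaled to one fixed sum per library), and 13878 genes in all were tested. The hearts came from C57BL/6J females, an inbred strain, aged 9 weeks. Both regimens began with 7 days of free chow and a cycle of 12 h light and 12 h dark, followed by 7 days with food only in the dark phase (nighttime-restricted feeding, NRF, the control) or only in the light phase (daytime-restricted feeding, DRF). Hearts were taken every 4 h over 1 day, at 7 zeitgeber times (ZT, in hours since the lights came on), with 4 replicates each, which makes 14 groups and 56 polyA RNA-seq libraries, with no genetic alteration in either group. One sex, one age and one week of feeding bound what these groups can stand for. Where nothing says that replicates came from separate animals, the p-values measure only the spread between these libraries.

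Heart muscle takes up glucose through GLUT1, the basal carrier encoded by Slc2a1, and GLUT4, the carrier encoded by Slc2a4 that insulin brings to the cell surface. Hexokinases trap the sugar as glucose-6-phosphate, phosphofructokinase commits it to glycolysis, and the bifunctional PFKFB enzymes make and remove the sugar phosphate that activates phosphofructokinase. Pyruvate kinase completes the pathway and lactate dehydrogenase interconverts pyruvate and lactate. The heart draws most of its energy from fatty acids, and its use of glucose is known to rise after a meal, which is why a change of feeding time is of interest here.

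Recovered depth was 29.4 to 53.2 M reads per library (M being the mega prefix), with a median of 37.5 M. The 6 cardiomyocyte markers summed to between 22940 and 36620 TPM and the skeletal muscle markers to at most 5.90 TPM. Summed atrial markers ranged from 128 to 4276 TPM under NRF (median 605 TPM) and from 94.5 to 5448 TPM under DRF (median 1790 TPM), with a list median of 1.11 log2 between regimens and 0 of 4 markers called in mean level. Erythroid markers summed to 1672 to 42720 TPM under NRF and 1863 to 66920 TPM under DRF. Their part in the results was not tested. In 2 libraries the profile stood far from the label. Over 1082 genes with a different rhythm between regimens (clock genes and the 10 genes left out), the library labelled DRF ZT4 replicate 1 lay nearest to the NRF ZT8 mean (root mean square distance 0.165, against 0.388 to its own group), and the library labelled NRF ZT8 replicate 1 lay nearest to the DRF ZT4 mean (0.172 against 0.364). In both the own group ranked 9 of 14. In the other libraries it ranked 1 to 3, and NRF ZT4 replicate 3 was slightly nearer to DRF ZT24 (0.212 against 0.215) and NRF ZT4 replicate 1 to NRF ZT0 (0.210 against 0.228). The library labelled DRF ZT16 replicate 1 was nearer to DRF ZT12 over 12 clock genes (0.330 against 0.759) but not over the 1082 genes. Labels were kept throughout, and the results were recomputed without the first 2 libraries and without all 3.

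Promoter sequences are shown for the PFKFB pair, which had the largest fitted differences in rhythm between regimens among the 10 (0.74 and 0.38 on the log2 scale), and for Ldha, whose window held the same motif without a called rhythm. They are 300-base windows from RefSeq on GRCm38.p6, from 250 bases before to 50 bases after a transcription start, written 5′ to 3′ on the strand of the gene. The Pfkfb1 window is chrX:150587993-150588292 (plus strand), the start closest to the annotated gene start among 4 listed. The Pfkfb2 window is chr1:130715772-130716071 (minus strand), the one of 3 that held the motif. The Ldha window is chr7:46845554-46845853 (plus strand), the first of 2. Capitals mark the letters CACGTG, an E-box of the kind that clock proteins and glucose-responsive factors can bind, a motif that reads the same on both strands.
Pfkfb1: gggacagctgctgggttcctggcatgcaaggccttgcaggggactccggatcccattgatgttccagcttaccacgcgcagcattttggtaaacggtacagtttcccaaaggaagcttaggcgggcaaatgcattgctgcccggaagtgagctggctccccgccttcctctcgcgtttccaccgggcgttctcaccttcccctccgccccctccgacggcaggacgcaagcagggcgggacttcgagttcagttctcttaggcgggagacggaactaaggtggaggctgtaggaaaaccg
Pfkfb2: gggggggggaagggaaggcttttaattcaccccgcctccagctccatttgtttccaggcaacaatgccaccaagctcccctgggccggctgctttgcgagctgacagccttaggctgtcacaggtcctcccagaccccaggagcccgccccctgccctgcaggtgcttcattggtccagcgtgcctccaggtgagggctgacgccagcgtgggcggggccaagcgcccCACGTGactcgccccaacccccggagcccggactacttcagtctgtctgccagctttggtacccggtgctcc
Ldha: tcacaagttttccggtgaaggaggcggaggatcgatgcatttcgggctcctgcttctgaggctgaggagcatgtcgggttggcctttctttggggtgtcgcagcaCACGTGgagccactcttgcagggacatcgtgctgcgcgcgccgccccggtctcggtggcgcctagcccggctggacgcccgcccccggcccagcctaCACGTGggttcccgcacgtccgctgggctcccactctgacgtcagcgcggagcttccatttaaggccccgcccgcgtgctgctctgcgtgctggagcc

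CACGTG was found in windows of 3 of the 9 genes with an entry. It lay in 1 of 4 windows of Pfkm, 1 of 3 of Pfkfb2 and 1 of 2 of Ldha. It occurs in windows of 8.09% of all 27025 genes with an entry and in 7.15% of all 32851 windows of this length. The 9 genes have 20 windows, more per gene than all genes have, so the shares per gene are not like for like. The Pfkfb2 copy began 22 bases upstream of the start, at position -22, and the Ldha copies at positions -145 and -48. The nuclear receptor half-site AGGTCA, searched on both strands, lay in windows of 4 genes. These were 1 of 4 windows of Pfkm, 1 of 4 of Pfkfb1, 1 of 2 of Pkm and the 1 window of Ldhb. It occurs in windows of 18.1% of all genes with an entry and in 16.3% of all windows. The glucocorticoid response element, an inverted repeat searched on both strands, was in none of the 20 member windows and in 0.475% of all. Slc2a4 is named only. These matches are a description of letters only, and the rhythms of genes with and without them were not compared.

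Levels set the frame. Ranked by mean TPM over the 56 libraries, the order was Ldhb (1654 TPM), Pfkm (524 TPM), Ldha (445 TPM), Pkm (402 TPM), Slc2a4 (227 TPM), Hk2 (92.5 TPM), Hk1 (41.7 TPM), Pfkfb2 (10.9 TPM), Slc2a1 (9.37 TPM) and Pfkfb1 (4.86 TPM). Neighbours in this order kept their places in all 56 libraries except at 3 steps. Pfkm exceeded Ldha in 54 libraries, Ldha exceeded Pkm in 54, and Pfkfb2 exceeded Slc2a1 in only 37. The order of the last pair was the least steady, and it was not tested. The 4 most abundant genes encode enzymes of glycolysis or lactate dehydrogenase subunits, while the lowest 3 encode the basal carrier and the regulatory PFKFB enzymes.

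Rhythms of 24 h were called in 4 of the 10 genes under NRF (Slc2a1, Slc2a4, Hk1 and Pfkfb1) and in 3 under DRF (Hk1, Pfkfb1 and Pfkfb2), by limma on log2(TPM + 1) with an adjusted p under 0.05. Of all tested genes, 37.3% were called under NRF and 32.4% under DRF, so the counts were near the background. Hk1 and Pfkfb1 were called under both regimens. A different rhythm between regimens was called for 5 genes (Slc2a1, Slc2a4, Hk1, Pfkfb1 and Pfkfb2), against 27.6% of all genes. Without the first 2 doubtful libraries, and without all 3, the genes called rhythmic under each regimen were the same, and 4 genes had a different rhythm, the exception being Pfkfb2. In whole-tissue RNA, fewer cells of a type and less RNA per cell cannot be told apart.

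**Figure D1:**
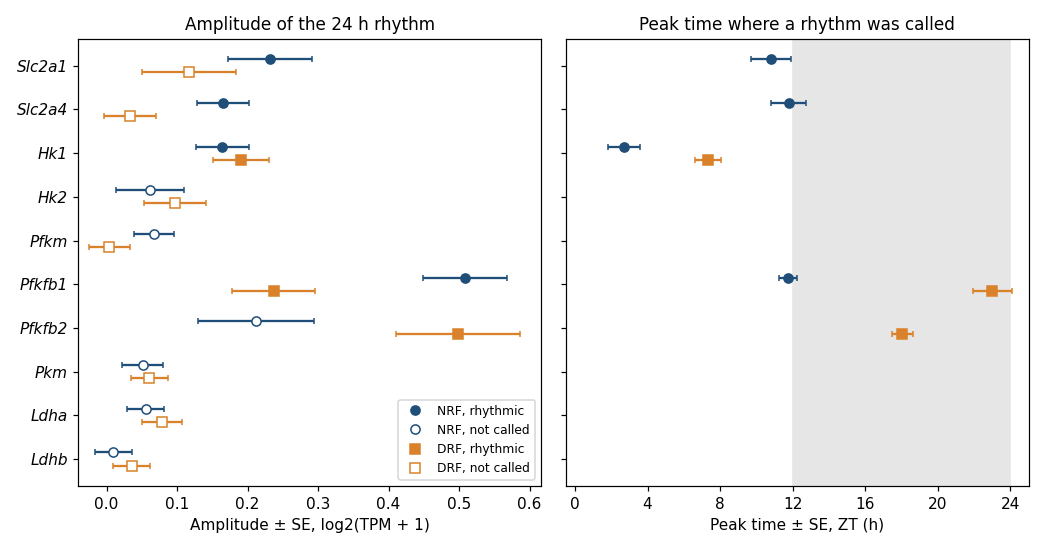
Left, amplitude (mean to peak, log2(TPM + 1), ± SE) of the fitted 24 h rhythm of each gene under NRF (circles) and DRF (squares), filled where the rhythm was called. Right, fitted peak time (ZT, ± SE) where a rhythm was called, with the dark phase in grey; Pfkfb1 moved from ZT11.7 to ZT23.0 and Hk1 from ZT2.69 to ZT7.33.

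Both carriers were called rhythmic under NRF and not under DRF. Slc2a1 (GLUT1, ENSMUSG00000028645, chr4:119108711-119137983, plus strand, GRCm38) reached its highest group mean under NRF at ZT12, 12.1 ± 0.899 TPM (SD, n = 4), and its lowest at ZT20, 7.21 ± 0.826 TPM. At ZT12 its NRF libraries read 11.8, 13.2, 12.4 and 11.1 TPM, and its DRF libraries 8.12, 11.1, 7.46 and 9.31 TPM. The NRF values lay higher, with one DRF library reaching into their range, and the difference of -0.40 log2 did not pass the test (adjusted p = 0.0955). At ZT24 the order was turned, with 10.3, 8.98, 6.86 and 6.45 TPM under NRF and 11.3, 8.90, 12.9 and 12.1 TPM under DRF, and again did not pass in TPM (0.44 log2, adjusted p = 0.0629). The ZT24 difference was called after rescaling by the median of ratios, with scaling to genes not encoded in mitochondria, with limma-voom and with the deposited values. A difference at ZT20, not called in TPM (0.32 log2, adjusted p = 0.155), was called in all of these but limma-voom. The fitted amplitude was 0.23 ± 0.06 (SE) under NRF with a peak at ZT10.8 ± 1.10 h (adjusted p = 0.0169), and 0.12 ± 0.07 under DRF (adjusted p = 0.259), an amplitude difference of -0.11 with a 95% interval of -0.29 to 0.07 that includes 0. The test of the difference gave an adjusted p of 0.0177.

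Slc2a4 (GLUT4, ENSMUSG00000018566, chr11:69942539-69948188, minus strand) also reached its highest NRF mean at ZT12. Its NRF group means went from 221 ± 28.7 TPM at ZT4 to 264 ± 15.8 TPM at ZT12 and stood at 201 ± 33.5 TPM at ZT24, while its DRF means stayed between 202 and 236 TPM. At ZT12 the NRF libraries read 242, 265, 274 and 276 TPM and the DRF libraries 223, 209, 213 and 231 TPM. The groups did not overlap, but the difference of -0.27 log2 had an adjusted p of 0.0824. The amplitude was 0.17 ± 0.04 under NRF (peak ZT11.8 ± 0.967 h, adjusted p = 0.00209) and 0.03 ± 0.04 under DRF (adjusted p = 0.759). The amplitude difference was -0.13 (95% interval -0.24 to -0.03), and the rhythm differed between regimens with an adjusted p of 0.0110. The difference in rhythm lost its call without ZT12 (adjusted p = 0.189 for Slc2a1 and 0.0680 for Slc2a4) and without ZT24 (0.0834 and 0.138), and for Slc2a1 also without ZT20 (0.0603). It was lost as well without replicate 3 of every group (0.260 for Slc2a1 and 0.106 for Slc2a4) or replicate 4 (0.107 and 0.0938). The size of the difference stayed between 0.25 and 0.47 for Slc2a1 (0.31 in TPM with all libraries) and between 0.14 and 0.23 for Slc2a4 (0.20) over the alternatives on the log2 scale. The NRF rhythm of Slc2a1 was lost without ZT12 (0.286) or ZT20 (0.0648), without replicate 2 (0.0907), 3 (0.191) or 4 (0.104) of every group, and with an F test of the ZT means (0.0603), while that of Slc2a4 held in every alternative. Within a library the ratio of Slc2a4 to Slc2a1 averaged 26.0 ± 4.72 under NRF and 23.7 ± 3.48 under DRF (SD, n = 28).

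**Figure D2:**
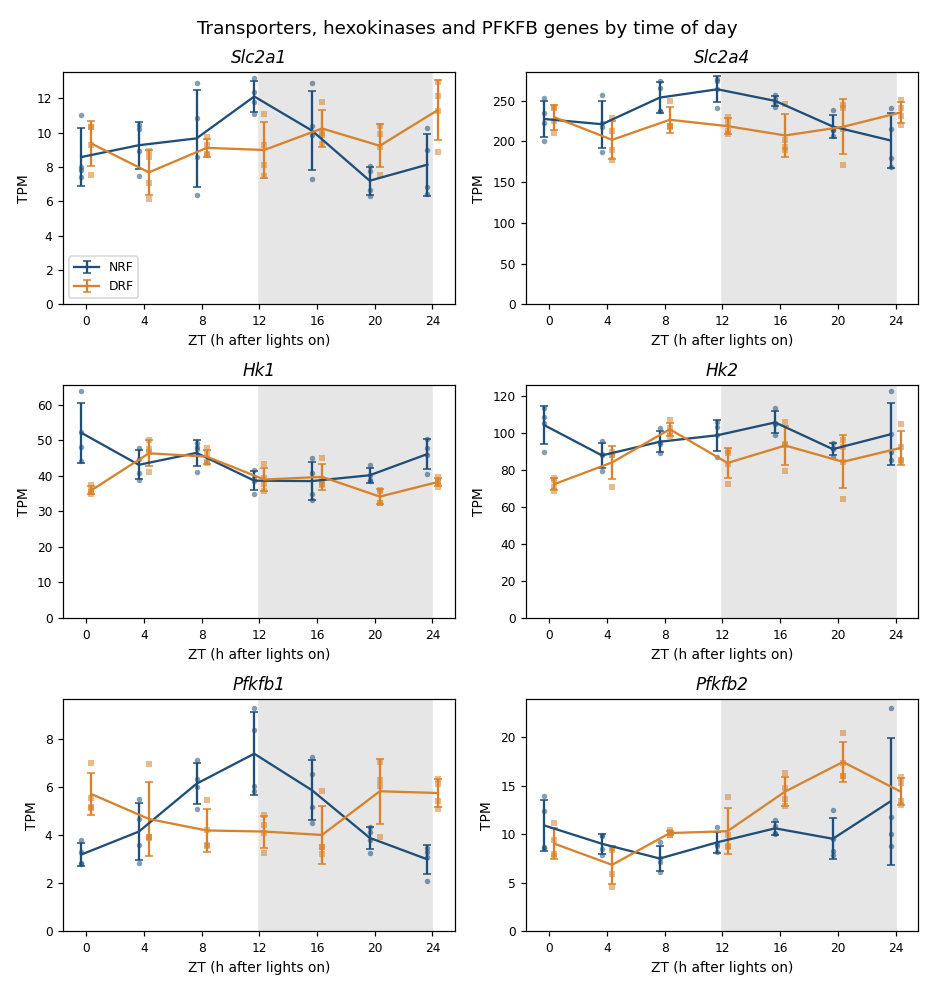
TPM of 6 genes against ZT under NRF (circles) and DRF (squares): single libraries as points, group means as lines with SD bars (n = 4), dark phase in grey. The Pfkfb1 curves cross, with NRF highest at ZT12 (7.39 TPM) and DRF highest at ZT20 (5.83 TPM), and Pfkfb2 rises to 17.4 TPM at ZT20 under DRF.

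Both hexokinase genes were lower under DRF at ZT0, and only Hk1 was called at ZT24. Hk1 (ENSMUSG00000037012, chr10:62268855-62379908, minus strand) encodes the widely expressed hexokinase bound to mitochondria. At ZT0 its libraries read 52.3, 44.2, 63.8 and 48.1 TPM under NRF and 35.5, 34.8, 37.4 and 35.8 TPM under DRF. Every DRF value was below every NRF value, and the difference was -0.51 ± 0.09 log2 (SE, adjusted p = 6.46e-05). ZT24, the same clock time 1 day on, gave 47.8, 50.4, 40.4 and 45.8 TPM under NRF against 38.1, 37.0, 38.2 and 39.5 TPM under DRF, again without overlap (-0.26 ± 0.09, adjusted p = 0.0469). The ZT24 call was lost on leaving out any one of 7 of its 8 libraries (adjusted p from 0.0544 to 0.160), NRF replicate 3 being the exception. The ZT0 call held in every alternative run.

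Hk1 was rhythmic under both regimens, with similar amplitudes of 0.16 ± 0.04 under NRF and 0.19 ± 0.04 under DRF (difference 0.03, 95% interval -0.08 to 0.14). Its peak moved from ZT2.69 ± 0.895 h under NRF (adjusted p = 0.0107) to ZT7.33 ± 0.724 h under DRF (adjusted p = 0.000257), a delay of 4.64 h (95% interval 2.33 to 6.95 h). The rhythm differed between regimens in ZT (adjusted p = 0.00673) and also when time was counted from the opening of the food window (adjusted p = 0.000182). The difference in ZT was lost without ZT0 (adjusted p = 0.112) or without replicate 2 (0.0791) or 4 (0.0648) of every group, and the rhythm under NRF without ZT12 (0.0700), ZT16 (0.0593), replicate 2 (0.126) or replicate 4 (0.0666).

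Hk2 (ENSMUSG00000000628, chr6:82725025-82774454, minus strand), the insulin-responsive hexokinase of muscle, was read at 113.5, 89.7, 109 and 105 TPM under NRF and 74.7, 75.5, 70.6 and 68.7 TPM under DRF at ZT0. The groups were separate, and the difference of -0.52 ± 0.10 log2 had an adjusted p of 0.000412. No other ZT passed for Hk2, and at ZT24 the regimens overlapped, with 85.4 to 123 TPM under NRF and 84.8 to 105 TPM under DRF. Under DRF the ZT24 libraries exceeded those of ZT0 by 0.34 ± 0.10 log2 (adjusted p = 0.118), although both are the same clock time. Its fitted amplitudes were 0.06 ± 0.05 and 0.10 ± 0.04 (adjusted p = 0.431 and 0.254). An F test of the ZT means did call Hk2 under DRF (0.0203) and its difference between regimens (0.0287), as did the fit without ZT12 under DRF (0.0488). The ratio of Hk2 to Hk1 within a library went from 2.02 ± 0.226 at ZT0 to 2.78 ± 0.263 at ZT16 under NRF and ran from 1.83 ± 0.258 at ZT4 to 2.47 ± 0.322 at ZT20 under DRF.

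Pfkfb1 had the smallest adjusted p for a difference in rhythm among the 10 genes. It encodes the PFKFB isoform of liver and skeletal muscle and lies at chrX:150588229-150643878 (ENSMUSG00000025271, plus strand). Under NRF its group mean went from 3.19 ± 0.475 TPM at ZT0 to 7.39 ± 1.73 TPM at ZT12 and back to 3.00 ± 0.612 TPM at ZT24. Under DRF the highest mean was 5.83 ± 1.35 TPM at ZT20 and the lowest 4.01 ± 1.21 TPM at ZT16. These levels are low, at 135 to 679 reads per library. The highest group mean was 2.47 times the lowest under NRF and 1.45 times under DRF.

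At ZT0 the NRF libraries read 2.85, 3.82, 2.81 and 3.30 TPM and the DRF libraries 7.02, 5.13, 5.18 and 5.54 TPM. DRF was higher with no overlap (0.68 ± 0.17 log2, adjusted p = 0.00650). At ZT12 the order was the reverse, with 8.39, 6.04, 9.32 and 5.83 TPM under NRF and 4.08, 4.45, 3.26 and 4.83 TPM under DRF, again separate (-0.69 ± 0.17, adjusted p = 0.00933). At ZT24, NRF read 2.11, 3.10, 3.46 and 3.32 TPM and DRF 6.36, 5.10, 6.14 and 5.45 TPM (0.77 ± 0.17, adjusted p = 0.00303). The ZT12 call was lost without DRF ZT12 replicate 3 (adjusted p = 0.0608) or NRF ZT12 replicate 3 (0.0647), and the other 2 calls held in every alternative run that kept Pfkfb1. That gene has a mean of 4.86 TPM and so drops out under the stricter filter of 5 TPM.

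The fitted Pfkfb1 rhythm peaked at ZT11.7 ± 0.502 h under NRF (adjusted p = 1.86e-07) and at ZT23.0 ± 1.07 h under DRF (adjusted p = 0.0134). The shift of 11.3 h (95% interval 8.88 to 13.6 h) spanned nearly the 12 h between the feeding windows, and the test of the difference gave an adjusted p of 8.82e-09. It held in all 22 alternatives that could be run, with an adjusted p of at most 4.05e-06. Amplitude fell from 0.51 ± 0.06 under NRF to 0.24 ± 0.06 under DRF, a difference of -0.27 (95% interval -0.44 to -0.10). The rhythm under DRF alone was lost without ZT24 (adjusted p = 0.0592), without replicate 1 of every group (0.0970) or without replicate 3 of every group (0.0651), and with an F test of the ZT means (0.0767). Library DRF ZT4 replicate 1, one of the doubtful ones, read 6.98 TPM against 3.89, 3.91 and 3.93 TPM in the other 3, and DRF ZT16 replicate 1 read 5.82 TPM against 3.22 to 3.52 TPM. Without all 3 doubtful libraries the amplitude under DRF was 0.24 and the rhythm was still called (adjusted p = 0.00802).

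Counting time from the opening of the food window, which is ZT12 under NRF and ZT0 under DRF, the Pfkfb1 peaks lay 0.745 h apart. Set side by side in this way, DRF ZT0 (5.72 ± 0.889 TPM) stands against NRF ZT12 (7.39 ± 1.73 TPM), DRF ZT8 (4.20 ± 0.899 TPM) against NRF ZT20 (3.89 ± 0.471 TPM) and DRF ZT20 (5.83 ± 1.35 TPM) against NRF ZT8 (6.14 ± 0.848 TPM). In both regimens the 2 highest group means lay at the opening of the food window and 4 h before it. The rhythms still differed on food time (adjusted p = 0.0185), a call that was lost without ZT12 (0.190) or ZT24 (0.0714) and without replicate 1 (0.0597) or 2 (0.0882) of every group. On food time 3 of the 10 genes differed (Hk1, Pfkfb1 and Pfkfb2), against 41.4% of all genes.

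Pfkfb2 (ENSMUSG00000026409, chr1:130689182-130729253, minus strand) encodes the heart isoform, which is known to be activated by insulin signalling. Its group means under DRF went from 6.85 ± 1.94 TPM at ZT4 to 17.4 ± 2.06 TPM at ZT20, a ratio of 2.55. Under NRF they stayed between 7.50 and 13.4 TPM, and the highest, at ZT24, rested on 1 library of 23.0 TPM beside 11.7, 8.80 and 10.02 TPM. At ZT20 the DRF libraries read 20.4, 16.01, 17.3 and 16.05 TPM and the NRF libraries 12.5, 7.87, 8.26 and 9.54 TPM. All DRF values lay above all NRF values (0.82 ± 0.18 log2, adjusted p = 0.00145), and this call held in every alternative run. Groups were also separate at ZT8 and ZT16, where the differences of 0.40 log2 at both did not pass (adjusted p = 0.286 and 0.149).

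The Pfkfb2 rhythm was called under DRF (amplitude 0.50 ± 0.09, peak ZT18.0 ± 0.592 h, adjusted p = 0.000376) and not under NRF (0.21 ± 0.08, adjusted p = 0.0826). The NRF rhythm was called with the replicate block (0.0454), the median of ratios (0.0498) and limma-voom (0.0444), and without ZT20 (0.0230). The fitted peaks were 2.96 h apart in ZT (95% interval of the shift -6.17 to 0.25 h), with 1.15 to 4.19 h over the alternatives, and the NRF peak belongs to a rhythm that was not called. In food time the difference in rhythm was large, with an adjusted p of 8.23e-05 that held in all alternatives. The difference in ZT was marginal (adjusted p = 0.0446) and was lost without the first 2 doubtful libraries (0.0556), without all 3 (0.0748), and without ZT0 (0.0685), ZT4 (0.360), ZT16 (0.0709) or ZT20 (0.213). It was also lost without any one replicate number (0.0850 to 0.179), with no filter (0.0658) and with scaling to genes not encoded in mitochondria (0.0581). Pfkfb2 shares 17.4% of its exon bases with Gm29427, a gene model on the same strand, and 2.12% with Yod1 on the opposite strand. Same-strand gene models also share 15.3% of the exon bases of Pkm (Gm49759) and 10.2% of those of Pfkm (Gm26513), and the opposite-strand overlaps of Slc2a1, Hk1, Pfkfb1 and Pfkm are at most 3.06%. Within a library the ratio of Pfkfb2 to Pfkfb1 ran from 1.26 ± 0.387 at ZT8 to 3.50 ± 1.10 at ZT0 under NRF, with 5.07 ± 3.93 at ZT24. Under DRF it ran from 1.52 ± 0.475 at ZT4 to 3.73 ± 0.628 at ZT16.

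No rhythm was called in TPM for the 4 abundant enzymes. Pfkm (ENSMUSG00000033065, chr15:98092589-98132451, plus strand), the muscle phosphofructokinase, had group means between 482 and 554 TPM under NRF and between 493 and 552 TPM under DRF. Its amplitude was 0.07 ± 0.03 under NRF (adjusted p = 0.126) and 0.00 ± 0.03 under DRF (adjusted p = 0.996). Pkm (ENSMUSG00000032294, chr9:59656368-59679375, plus strand), pyruvate kinase of muscle, ranged from 400.5 to 432 TPM and from 374 to 408 TPM in its group means, with amplitudes of 0.05 ± 0.03 and 0.06 ± 0.03 (adjusted p = 0.360 and 0.160). Gene-level values do not separate the splice forms of Pkm. The differences in rhythm between regimens did not pass (adjusted p = 0.422 for Pfkm and 0.117 for Pkm), with amplitude differences of -0.06 (95% interval -0.14 to 0.02) and 0.01 (-0.07 to 0.09). For Pkm this depended on the scaling and tool. With the median of ratios its difference had an adjusted p of 0.0124 and its rhythms 0.0422 under NRF and 0.0199 under DRF, and with limma-voom the difference had 0.00974 and the DRF rhythm 0.0240. The NRF rhythm of Pfkm was called with scaling to genes not encoded in mitochondria (0.0112) and without ZT0 (0.0168).

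Lactate dehydrogenase is built from an A subunit, encoded by Ldha, and a B subunit that prevails in heart, encoded by Ldhb. At ZT0, Ldha (ENSMUSG00000063229, chr7:46841475-46855627, plus strand) read 556, 448, 527 and 428 TPM under NRF and 402, 389.8, 456 and 405 TPM under DRF. One DRF library lay within the NRF range, and the difference was -0.24 ± 0.07 log2 (adjusted p = 0.0194). The call was lost without DRF ZT0 replicate 1 (adjusted p = 0.0608), 2 (0.0685) or 4 (0.0518), or NRF ZT0 replicate 1 (0.145) or 3 (0.0985). The amplitudes of Ldha were 0.06 ± 0.03 and 0.08 ± 0.03 (adjusted p = 0.234 and 0.0888), and the test of their difference gave an adjusted p of 0.0689. After rescaling by the median of ratios the adjusted p was 0.00366 for Ldha under DRF, with an amplitude of 0.13, and 0.00194 for its difference. Both were also called with limma-voom (0.0129 and 0.00362), scaling to genes not encoded in mitochondria (0.0279 and 0.0193) and the deposited values (0.0281 and 0.0235). In TPM its DRF rhythm was also called by an F test of the ZT means (0.0373), without ZT20 (0.0138) and without ZT24 (0.0489), its difference without ZT24 (0.0302), and without ZT16 the DRF amplitude was 0.02. The pseudogenes Ldha-ps and Ldha-ps2 were found by name alone. Their sequences and reads were not compared with those of Ldha, so the split of reads between them and Ldha is uncertain.

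Ldhb (ENSMUSG00000030246, chr6:142490249-142507957, minus strand) had group means between 1605 and 1716 TPM under NRF and between 1585 and 1720 TPM under DRF, with amplitudes of 0.01 ± 0.03 and 0.04 ± 0.03 (adjusted p = 0.959 and 0.483) and a difference of 0.03 (95% interval -0.05 to 0.10). No ZT differed for Ldhb by more than 0.11 log2. The ratio of Ldhb to Ldha within a library, which does not depend on the scaling, was 3.64 ± 0.217 under NRF and 3.83 ± 0.332 under DRF (SD, n = 28). At ZT0 it was 3.51 ± 0.163 under NRF and 4.11 ± 0.284 under DRF, with the libraries at 3.37 to 3.74 and 3.75 to 4.38, and at ZT16 the order turned, with 3.61 ± 0.204 and 3.35 ± 0.190.

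**Figure D3:**
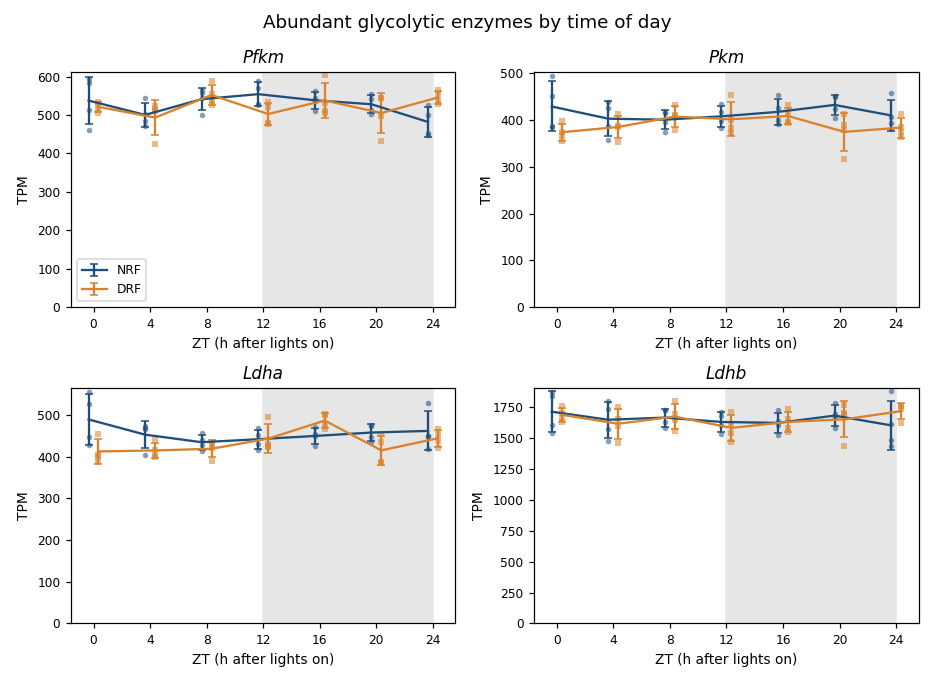
TPM of the 4 most abundant of the genes against ZT under NRF (circles) and DRF (squares): libraries as points, group means with SD bars (n = 4), dark phase in grey. All axes start at 0; Ldhb stayed between 1585 and 1720 TPM in its group means, and the only difference at a single ZT with an adjusted p under 0.05 was that of Ldha at ZT0 (489.8 TPM under NRF, 413 TPM under DRF), where the groups overlapped, while those of Pfkm at ZT24 did not overlap.

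Compared ZT by ZT, 8 of the 70 pairs of gene and ZT differed between regimens, against 7.20% of all pairs tested. They were Hk1, Hk2, Pfkfb1 and Ldha at ZT0, Pfkfb1 at ZT12, Pfkfb2 at ZT20, and Hk1 and Pfkfb1 at ZT24. At ZT0, where 11.3% of all genes were called, 3 genes were lower under DRF (8.29% of all genes) and 1, Pfkfb1, was higher (3.03%). At ZT4 and ZT8 no member passed, and only 0.440% and 0.389% of all genes did. Of the 10, 1 passed at ZT12 (7.74% of all genes), 0 at ZT16 (6.90%), 1 at ZT20 (14.8%) and 2 at ZT24 (8.86%). ZT4 and ZT8 hold the libraries going against their labels. Without those 2 libraries 10 pairs were called, Pfkfb1 at ZT20 and Slc2a1 at ZT24 being added. Without all 3 doubtful libraries 12 were called, with Slc2a4 and Pfkfb1 at ZT16 added as well, and none was at ZT4 or ZT8 in either case. Without adjustment, 26 of the 70 pairs had p under 0.05, against 22.0% of all pairs.

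**Figure D4:**
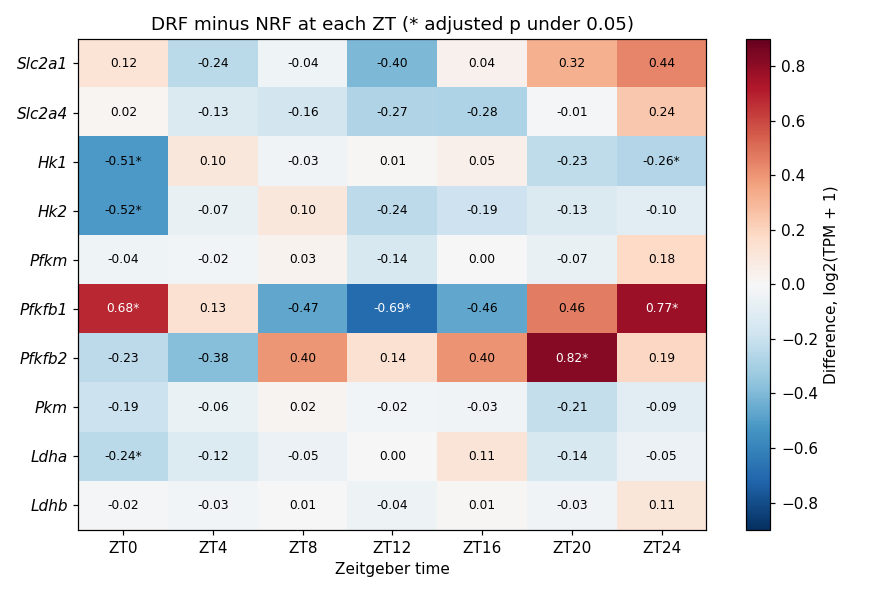
Difference between DRF and NRF in log2(TPM + 1) for each gene (rows) at each ZT (columns), red where DRF was higher and blue where it was lower, with an asterisk at an adjusted p under 0.05. The Pfkfb1 difference changes sign over the day, from 0.68 at ZT0 to -0.69 at ZT12 and 0.77 at ZT24; Ldhb stays within 0.11 of 0.

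ZT24 and ZT0 are the same clock time on successive days and serve as a measure of repeatability. None of the 20 pairs of gene and regimen differed between them by limma at an adjusted p under 0.05, against 0.0576% of all genes under NRF and 0.468% under DRF. Without adjustment, at p under 0.05, 1 of the genes passed under NRF (Pfkm) and 2 under DRF (Hk2 and Pfkfb2), against 9.19% and 12.2% of all genes. The scaling by median of ratios and limma-voom each called 1 pair (Hk2 under DRF), and the replicate block 1 (Pfkfb2 under DRF). For Pfkfb2 under DRF the 2 means were 9.03 ± 1.56 TPM at ZT0 and 14.4 ± 1.41 TPM at ZT24 (0.62 ± 0.18 log2, adjusted p = 0.0972).

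Mean levels over the day differed for 4 genes in TPM, against 26.1% of all genes. The log2 values are regimen coefficients of a limma fit with a level for each ZT and the interaction of regimen with cosine and sine. They need not equal the difference of the averages printed beside them. For Pfkfb1 the coefficient was -0.04, with averages of 4.81 TPM under NRF and 4.91 TPM under DRF. Slc2a4, Hk1 and Hk2 were lower under DRF, as were 24.5% of all genes, and Pfkfb2 was higher, as were 1.68%. Slc2a4 averaged 234 ± 28.7 TPM under NRF and 219.8 ± 21.8 TPM under DRF (SD, n = 28; -0.11 ± 0.04 log2, adjusted p = 0.0271), lower at 5 of 7 ZT. For Hk1 the means were 43.5 ± 6.33 and 39.8 ± 4.87 TPM (-0.10 ± 0.04, adjusted p = 0.0492), lower at 4 of 7. For Hk2 they were 97.5 ± 10.1 and 87.5 ± 11.9 TPM (-0.15 ± 0.04, adjusted p = 0.00851), lower at 6 of 7. Pfkfb2 averaged 10.02 ± 3.09 and 11.8 ± 3.81 TPM (0.21 ± 0.08, adjusted p = 0.0366), higher at 5 of 7.

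The 3 lower means depended on the scaling. Across all genes the median difference was -0.05 log2 and 93.6% of the calls were lower under DRF. After rescaling by the median of ratios these were 0.00 and 57.6%, and after scaling to genes not encoded in mitochondria -0.02 and 78.5%. Mitochondrially encoded genes held 21.7 ± 1.46% of reads under DRF and 20.3 ± 1.57% under NRF. With the median of ratios the differences were -0.05 for Slc2a4 (adjusted p = 0.351), -0.04 for Hk1 (0.524) and -0.09 for Hk2 (0.140), while that of Pfkfb2 was 0.27 (0.0168). The Slc2a4 call was lost without any one of ZT0, ZT4, ZT8, ZT12 or ZT16 (adjusted p from 0.0571 to 0.173) and the Hk1 call without any one of ZT0, ZT8, ZT12, ZT20 or ZT24 (0.0708 to 0.345). The Hk2 call was lost without ZT0 (0.0779) or ZT12 (0.170), and that of Pfkfb2 without ZT8 (0.07 log2, adjusted p = 0.621), ZT20 (0.273) or ZT24 (0.0587). With one replicate number left out of every group, Slc2a4 was lost without 2 (0.244) or 3 (0.0808), Hk1 without any (0.0696 to 0.202), Hk2 without 2 (0.0665) and Pfkfb2 without 1 (0.0552), 2 (0.142) or 3 (0.2005), so that 0 of the 10 kept a call without replicate 2. Hk1 was also lost with the replicate block (0.0532) and limma-voom (0.128), and Slc2a4 with limma-voom (0.0584). Without the first 2 doubtful libraries Hk1 was lost (0.0775), and without all 3 Pfkfb2 (0.0534). In TPM, all 5 endothelial markers, 3 of 5 fibroblast markers and 2 of 5 leukocyte markers were also lower in mean under DRF. Of all genes, 24.5% were. Endothelial sums were 425 to 697 TPM under DRF against 473 to 812 TPM, and fibroblast sums 456 to 769 against 492 to 812 TPM. Marker values under the other scalings are not given. Of 6 cardiomyocyte markers 1 was lower (Actc1, -0.18 log2, adjusted p = 0.00379) and 1 higher (Tnnt2, 0.10, adjusted p = 0.0203). Their part in these differences was not tested. The other 6 genes did not pass. Pkm (-0.07 log2, 95% interval -0.13 to -0.01, adjusted p = 0.0556) was called with the filter of 5 TPM and without ZT24, and Ldha had an interval of -0.11 to -0.00081 (adjusted p = 0.124). The intervals were -0.08 to 0.04 for Pfkm, -0.17 to 0.08 for Pfkfb1, -0.13 to 0.12 for Slc2a1 and -0.06 to 0.05 for Ldhb.

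**Figure D5:**
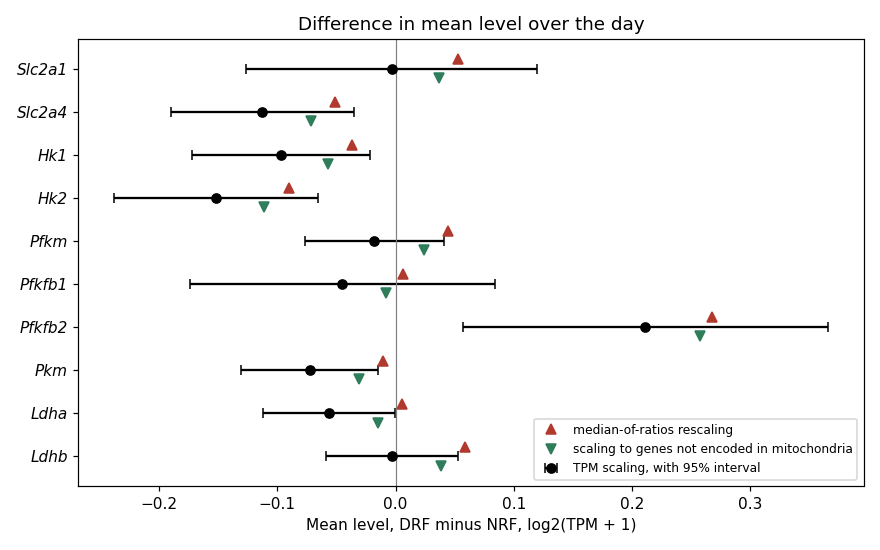
Fitted difference in mean level over the day, DRF minus NRF in log2(TPM + 1), in TPM with its 95% interval (black) and under 2 other scalings (triangles). Both rescalings move every gene to the right; Pfkfb2 stays above 0 (0.21, 0.27 and 0.26) while Ldha, at -0.06 in TPM, comes to 0.01 under the median of ratios.

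Other genes of the pathway were taken from lists by function. For the counts that follow, 27.6% of all genes had a different rhythm, 24.5% were lower in mean under DRF and 1.68% were higher, and nothing is read from a list's count against these shares. Of 5 tested hexose transporters besides GLUT1 and GLUT4, 3 had a different rhythm. Slc2a8, an intracellular carrier, had a course like those of the GLUT genes under NRF, with an amplitude of 0.30 ± 0.03 and a peak at ZT10.6 under NRF against 0.10 ± 0.03 under DRF (adjusted p = 7.54e-08). Slc2a9, a urate carrier, went from 0.42 ± 0.07 to 0.20 ± 0.06 (adjusted p = 0.00238), and Slc2a12, from 0.08 ± 0.04 to 0.23 ± 0.04 (adjusted p = 0.0154). In mean level 1 was higher under DRF (Slc2a12, 0.16 log2, adjusted p = 0.00243) and 0 were lower, and the list's median was -0.02. Of 8 tested genes of GLUT4 trafficking, against the same shares, 3 had a different rhythm (Tbc1d4, Lnpep and Snap23) and 2 were lower in mean (Stx4a, by limma -0.12, adjusted p = 0.000514, and Snap23, -0.06, adjusted p = 0.0421), with a list median of -0.01. Tbc1d4, the insulin-signalling brake on GLUT4 vesicles, peaked at ZT5.42 under NRF and ZT23.6 under DRF.

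Among 19 tested other glycolytic enzymes, 4 had a different rhythm and 4 were lower in mean level, with a list median of -0.02. Pgam1, a phosphoglycerate mutase, peaked at ZT20.3 under NRF with no rhythm called under DRF (adjusted p of the difference 0.00176), and so did Tigar, which removes the activator that PFKFB enzymes make, at ZT19.4 (0.00193). Pfkp, the platelet phosphofructokinase, was rhythmic under both and moved from ZT2.97 to ZT23.6 (adjusted p = 0.0155). Of 6 lactate and pyruvate carriers, against the same shares, 3 had a different rhythm (Slc16a1, Slc16a7 and Mpc2) and 2 were lower in mean (Slc16a1 and Bsg), with a list median of -0.07. Slc16a1, the lactate carrier MCT1, moved from ZT17.8 to ZT9.35 with an amplitude of 0.30 ± 0.05 against 0.15 ± 0.04 (adjusted p = 1.58e-05), and its partner Bsg differed in mean by -0.08 (adjusted p = 0.0477).

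Glycogen stores are built and broken down by enzymes and phosphatase subunits beside glycolysis. Of 20 such genes, against the same shares, 7 had a different rhythm and 2 were lower in mean level, with 0 higher and a list median of -0.02. Ppp1r3a, Ppp1r3b and Ppp1r3c, which bring protein phosphatase to glycogen and favour its synthesis, had amplitudes of 0.52 ± 0.05, 0.72 ± 0.13 and 0.53 ± 0.08 under NRF against 0.14 ± 0.05, 0.17 ± 0.11 and 0.21 ± 0.07 under DRF (adjusted p of the difference 9.95e-05, 0.00287 and 3.85e-06). Pygb, a glycogen phosphorylase, went from 0.22 ± 0.03 to 0.09 ± 0.03 (adjusted p = 5.39e-05). As a check of time, all 12 core clock genes had a different rhythm, and in the 10 called under both regimens the fitted peaks moved by -2.79 h (Cry1) to -0.78 h (Nr1d1), with Arntl at ZT0.859 and ZT23.1.

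The genes whose 14 group means followed those of a member most closely were found by Pearson correlation over all tested genes, as a description. For Pfkfb1 they were Pnpla7 (r = 0.959), Art5 (0.947) and Deptor (0.936). For Hk1 they were Parvb (0.943), Ap1b1 (0.935) and Hspbp1 (0.929), and for Slc2a4 Clcn7 (0.928), Fam98c (0.928) and Acy1 (0.912). Slc2a1 was followed by Qars (0.869), Klf9 (0.858) and Chac1 (0.854), Hk2 by Ago2 (0.877), Prepl (0.863) and Nrd1 (0.847), and Pfkfb2 by Pikfyve (0.921), Lancl3 (0.888) and Faf1 (0.879). Pkm was followed by Pgk1 (0.920), another enzyme of the same pathway, Slc29a1 (0.914) and Map2k2 (0.912), and Ldha by Gyg (0.877), the glycogen primer, Cct5 (0.855) and 0610009L18Rik (0.847). The remaining 2 gave Glg1 (0.852), Osbpl2 (0.851) and Mir378b (0.844) for Pfkm and Heatr5b (0.893), Gtpbp6 (0.861) and Gm16574 (0.819) for Ldhb. All values of one group share their libraries, so genes that move with library composition correlate as well.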

How the data were processed

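Heart RNA was collected from mice under 2 feeding regimens at 7 ZT, and polyA libraries were made with a kit that does not mark strand, so reads of overlapping genes on opposite strands cannot be told apart. Per the submitters' processing notes, reads were aligned to mm10 with HISAT2 2.0.5 and counted with featureCounts 1.5.0-p3. The deposited values are called TPM by the authors but are on another scale, a library constant times log2(1 + scaled reads) divided by exon length, a unit with no usual name. Whole reads were recovered from their steps with GENCODE M21 exon lengths (GRCm38), where 99.9995% of 1192403 values under 30000 reads were whole to within 0.1 read. The annotated length gave whole reads for 9 of the 10 genes, and Ldhb was too abundant for that test. Of 22864 genes, 22852 were in the annotation, 832 needed another length and 1 was unresolved. Linear TPM was then computed. Genes were listed only where at least 20 libraries were above 0.

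Tests used limma 3.58.1 in R 4.3.3 on log2(TPM + 1), with eBayes (trend), Benjamini-Hochberg adjustment over all 13878 genes and a threshold of 0.05. Changes of low genes come out smaller on this scale than in TPM. Rhythms were F tests of cosine and sine terms with a 24 h period in 28 libraries of a regimen, differences in rhythm were F tests of their interaction with regimen in all 56, and single ZT were contrasts of the 14 group means, in which ZT0 and ZT24 are separate. Amplitude is the fitted distance from mean to peak, with delta-method errors. Food time counted NRF from 12 h later. Mean levels were compared by the regimen coefficient beside a level for each ZT and the interaction of regimen with cosine and sine. Alternatives were another pseudocount (0.1), no filter and a filter of 5 TPM, 2 rescalings, limma-voom on the reads, the deposited values, a replicate block, a threshold of 0.01, F tests of the ZT means, and leaving out each replicate, ZT or library. Leaving out the libraries that went against their labels was chosen after seeing the data. The fits were tested on simulated data. Samples were grouped by title. All 10 genes are named in each comparison; of each pathway list, up to 4 genes past the threshold with the largest size; and for each gene, the 3 of most similar course. The genes and lists were chosen with earlier results of these data known. One result of a pathway list is not reported here.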

Additional observations from a re-analysis of the deposited data

Results flagged for a closer look

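In 9 of 140 groups of 4 libraries, the highest or lowest value of a gene stood apart by a gap beyond the 95% critical value of Dixon's test. Chance gives this in about 1 of 20 groups. Pfkfb1 read 6.98 TPM in DRF ZT4 replicate 1, where the others read 3.89 to 3.93, and 5.82 TPM in DRF ZT16 replicate 1, where they read 3.22 to 3.52. Both libraries were nearer to another group over clock genes. Hk1 read 45.1 TPM in that same DRF ZT16 library (others 37.4 to 38.6). In DRF ZT4 replicate 2, Hk2 was at 70.9 TPM (others 87.9 to 89.7) and Pfkm at 424 TPM (others 509 to 524). Slc2a1 was at 11.1 TPM in NRF ZT0 replicate 1 (others 7.40 to 8.03), and Slc2a4 at 250.2 TPM in DRF ZT8 replicate 3 (others 218 to 220). Ldha was at 495 TPM in DRF ZT12 replicate 4 (others 423 to 432) and at 405 TPM in NRF ZT4 replicate 3 (others 466 to 474).

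The effect of time of day differed between the regimens by the limma interaction test for 5 genes, with adjusted p of 0.0177 for Slc2a1, 0.0110 for Slc2a4, 0.00673 for Hk1, 8.82e-09 for Pfkfb1 and 0.0446 for Pfkfb2. The values behind these tests stand in the report.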

How the results depend on the processing

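Under 2 rescalings or with other tools the counts shifted. With the median of ratios, 7 genes were rhythmic under NRF, 5 under DRF, 6 differed on food time, 1 in mean level and 1 pair (Hk2 under DRF) between ZT24 and ZT0. limma-voom gave 5 rhythmic under DRF, 2 means, 13 gene and ZT pairs and 1 ZT24 pair (Hk2 under DRF). Gene and ZT pairs numbered 12 with the median of ratios, 11 with scaling to genes not encoded in mitochondria and 10 with the deposited values. Pfkfb1 at ZT20 and Slc2a1 at ZT24 were called in each of these and with limma-voom. Scaling to genes not encoded in mitochondria and the deposited values left 1 mean each (Pfkfb2), and no filter left 2. At a threshold of 0.01, 2 genes were rhythmic under NRF, 2 had a different rhythm and 1 a different mean. Without ZT12, 2 were rhythmic under NRF, 3 had a different rhythm and 1 a different mean. A different rhythm was called for 3 without ZT0 and 3 without ZT20, and a different mean for 1 without ZT0, 1 without ZT8 and 2 without ZT20. Leaving out one replicate number gave 2 to 4 rhythmic under NRF, 2 to 3 under DRF, 1 to 4 with a different rhythm, 2 to 3 on food time, 0 to 3 means, 6 to 9 gene and ZT pairs and 0 to 1 ZT24 pairs. Leaving out one library gave 6 to 11 gene and ZT pairs and 0 to 1 ZT24 pairs. The causes were not tested. No result of a gene called in TPM turned its direction in any alternative. With the replicate block 5, 3, 5, 3 and 3 genes were called in the same order, with 8 gene and ZT pairs and 1 ZT24 pair (Pfkfb2 under DRF). Same-numbered libraries of the 2 regimens at one ZT correlated at -0.18 to 0.12 in their deviations (1 of 28 pairs over 0.1). Whether a number was shared as a batch within a regimen or across ZT was not tested. Low depth limits Pfkfb1 most, at 135 reads in the lowest library.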
